A study of Mus musculus with 8 samples.

Results

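The genes described here encode the proteasome, the multi-subunit protease that degrades ubiquitin-tagged proteins, in T cells from the pancreas of NOD mice. They were taken from the feature list of the count matrices by symbol (Psma, Psmb, Psmc, Psmd, Psme, Psmf or Psmg followed by a digit), leaving out Psmb8, Psmb9 and Psmb10, the interferon-inducible subunits of the immunoproteasome. The rule found 47 genes among 32285 features, without using any measured value. By role these were 8 genes of the alpha ring of the 20S core, 3 genes of its catalytic beta subunits, 4 of its other beta subunits and Psmb11, the beta subunit of the thymus. The 19S cap contributed 6 ATPase genes and 11 other subunit genes, and 3 more encode chaperones of its assembly. A further 4 encode chaperones of core assembly, 5 encode activators and Psmf1 encodes an inhibitor. The last gene, Psmc3ip, shares the symbol but is known for a role in meiotic recombination, and is not a subunit. Of the 47 genes, 45 passed the low-count filter of the comparison of CD8 with CD4 cells. Psma8, known from testis, and Psmb11 did not, with at most 2 and 3 UMIs in any sum of CD4 or CD8 cells of a library.

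The core of the proteasome is a barrel of stacked rings. The outer alpha rings form a gate, and the inner beta rings hold the proteolytic sites in Psmb6 (caspase-like), Psmb7 (trypsin-like) and Psmb5 (chymotrypsin-like). The 19S cap binds ubiquitin, unfolds the substrate with its ATPases and threads it into the core. The activator PA28, made of Psme1 and Psme2, opens the core without ubiquitin or ATP, is induced by interferon gamma and is known for its part in producing peptides for MHC class I. Lymphocytes also make the immunoproteasome, in which Psmb8 takes the place of Psmb5, Psmb9 that of Psmb6 and Psmb10 that of Psmb7.

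The T cells were sorted as CD45+ CD3+ TCR-beta+ from dissociated pancreas, frozen and processed together, and measured in 8 droplet libraries that count transcripts from the 3′ end by unique molecular identifiers (UMIs), barcodes that tag single molecules. All mice were NOD, a strain with spontaneous autoimmune diabetes, described as female and 3 to 4 months old (up to 5 months in the treatment protocol). Harvest on day 1 gave 1 library of active diabetes, with glucose over 600 mg/dl, and 1 of onset, at 250 mg/dl. The other 6 came from mice with new diabetes (200 to 300 mg/dl), given vehicle (30% ethanol, 5% Tween 20, 65% PEG300) or PPCA daily and harvested on day 2, 3 or 4, with 1 library per treatment and day. PPCA is a pair of drugs, the MDM2 inhibitor nutlin-3 (50 mg/kg), meant to raise p53 activity, and the Wee1 inhibitor MK-1775 (25 mg/kg), meant to disturb the cell cycle. The stated aim was to follow T cell subsets and their expression under this therapy. Vehicle and PPCA thus had 3 libraries apiece, while active and onset had 1. The number of mice per library is not stated, so p-values measure the spread between these libraries, which may be partly technical.

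Libraries held 7023 to 13129 barcodes and 36934580 to 67603740 UMIs, and 6134 to 11519 T cells were kept. CD4-gated cells had a Cd4 UMI and none of Cd8a or Cd8b1, and CD8-gated cells the reverse. Between 21.5% and 35.1% of T cells were in neither gate, and 1.97% to 7.83% had UMIs of both. The 6 T cell genes used for the gate summed to 5362 to 7247 CPM in the T cells of a library, and 12 genes of exocrine and islet cells to 10.5 to 136 CPM, with the islet gene Gcg at 0 in all 8 libraries. Any 2 libraries shared 14 to 41 cell barcodes, at most 0.431% of the smaller library. Xist or Y-linked transcripts did not match the labels in 4 libraries: vehicle on days 2 and 3 and PPCA on days 3 and 4 carried Y-linked transcripts, and the other 4 carried Xist. The vehicle and PPCA libraries therefore differed in this sign on days 2 and 4, in opposite directions, and were alike on day 3. A cell carried a median of 14 to 32 UMIs of the proteasome genes, from 11 to 19 of them, which was 0.372% to 0.491% of its UMIs.

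Promoter windows in RefSeq (build GRCm38.p6, 250 bases before to 50 after the start) were found for 39 of the 47 genes. They were searched on both strands for the core of the antioxidant response element, TGACNNNGC, the kind of element bound by Nfe2l1 and Nfe2l2, which are known to drive proteasome genes. The core was in 6 of the 39 genes (15.4%) and in 14.0% of all 27025 genes with a window. The core of the interferon-stimulated response element (a pair of GAAA runs with any 2 bases between) was in 5 of the 39 (12.8%) and in 3.99% of all genes. The matches in the catalytic subunits Psmb5 (chr14:54618024-54618052, minus strand) and Psmb6 (chr11:70525338-70525366, plus strand) are shown because these subunits carry the proteolytic sites, and those of Psme1 (chr14:55578493-55578522, plus strand), Psmd9 (chr5:123228021-123228050 and, for its antioxidant element core, chr5:123228149-123228177, plus strand) and Psmd4 (chr3:95042675-95042704, minus strand) because these genes differed between CD8 and CD4 cells. Capitals mark the core, read on the strand of the gene. In Psme1 and Psmd4 the core lies on the opposite strand. Psme1 and Psmd9 were higher in CD8-gated cells and Psmd4 lower. Not shown are the interferon element cores of Psmb3 and Psmg4, which were not called between the gates (edgeR adjusted p = 0.65 and 0.069). Also not shown are the antioxidant element cores of Psme4, Psmd12 and Psmc6, which were not called either. A match of letters is a description of the sequence and not a measured site.
Psmb5, antioxidant element core: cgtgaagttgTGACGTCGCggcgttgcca
Psmb6, antioxidant element core: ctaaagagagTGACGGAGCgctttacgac
Psmd9, antioxidant element core: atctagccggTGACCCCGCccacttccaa
Psme1, interferon element core: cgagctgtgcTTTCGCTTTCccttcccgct
Psmd9, interferon element core: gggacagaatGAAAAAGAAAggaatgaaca
Psmd4, interferon element core: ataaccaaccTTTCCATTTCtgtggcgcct

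Both PA28 genes lie on chromosome 14, and the 250 bases before their starts are shown because their levels moved together below. The Psme1 sequence is chr14:55578244-55578493 on the plus strand and the Psme2 sequence chr14:55591102-55591351 on the minus strand. Neither core was found in these bases, so none is in capitals. The interferon element core of Psme1 shown above begins 9 bases after the start.
Psme1, upstream: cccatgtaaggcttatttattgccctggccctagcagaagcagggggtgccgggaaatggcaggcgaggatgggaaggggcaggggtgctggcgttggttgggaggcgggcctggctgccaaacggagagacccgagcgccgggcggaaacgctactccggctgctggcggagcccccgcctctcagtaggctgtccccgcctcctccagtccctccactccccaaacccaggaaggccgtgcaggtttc
Psme2, upstream: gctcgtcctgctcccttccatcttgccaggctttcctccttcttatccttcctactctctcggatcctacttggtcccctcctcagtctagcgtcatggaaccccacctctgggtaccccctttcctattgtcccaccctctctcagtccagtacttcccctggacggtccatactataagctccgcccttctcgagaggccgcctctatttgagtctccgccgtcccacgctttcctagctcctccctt

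Levels are given as TMM-scaled CPM: counts were summed over the cells of a library and gate, scaled to 1000000 UMIs and corrected for its makeup by the TMM factor. A UMI marks 1 end of a transcript, so these values are not divided by transcript length, and genes are compared with themselves and not with each other. Summed over the 45 genes, the level in CD4-gated cells was lowest at 4026 CPM (PPCA, day 4), had a median of 4455 CPM and reached 5094 CPM (onset). In CD8-gated cells it was lowest at 4360 CPM, again with PPCA on day 4, had a median of 4631 CPM and reached 5162 CPM (vehicle, day 3). The sum thus varied by less than 1.5-fold over the libraries, and the ranges of the 2 gates overlapped. Before TMM scaling the highest sum was that of onset in both gates (5060 CPM in CD4-gated and 5033 CPM in CD8-gated cells), and the lowest was still PPCA on day 4 (3905 and 4021 CPM). In each library and gate 0 to 4 cells had no UMI of these genes. The low sum of PPCA on day 4 was seen across the cells: in CD4-gated cells the lower quartile, median and upper quartile of their share of a cell's UMIs were 0.298%, 0.372% and 0.458% with PPCA on day 4, beside 0.353%, 0.426% and 0.508% with vehicle. In CD8-gated cells these shares were 0.321%, 0.391% and 0.470%, beside 0.368%, 0.440% and 0.518%.

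**Figure D1:**
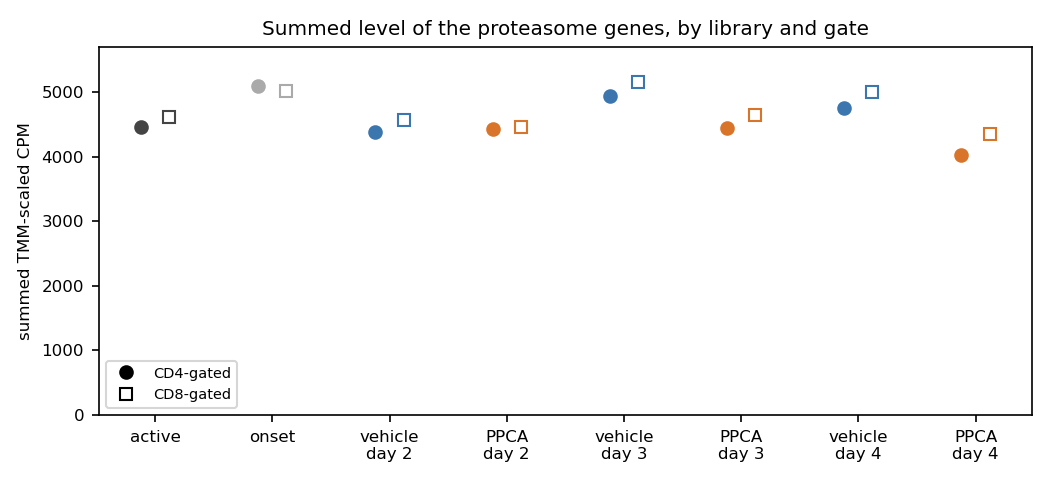
Summed TMM-scaled CPM of the 45 proteasome genes on the vertical axis, from 0, in each library (horizontal axis), with circles for CD4-gated and squares for CD8-gated cells, 1 sum per point. All sums lie between 4026 and 5162 CPM, and the PPCA library of day 4 is lowest in both gates, as it is before scaling.

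The first comparison set CD8-gated against CD4-gated cells within each of the 8 libraries. Across all genes 45.2% of 12657 were called (edgeR quasi-likelihood test, Benjamini-Hochberg adjusted p under 0.05), 22.9% higher in CD8-gated and 22.3% higher in CD4-gated cells. Among the proteasome genes 15 of 45 were called, 8 higher and 7 lower in CD8-gated cells, which is a smaller share than that of all genes. Their median log2 difference was -0.00016, beside -0.00090 for all genes. The calls were small, from a log2 difference of -0.23 to 0.35, and the PA28 genes were at the upper end. With plain library sizes in place of TMM scaling the calls among all genes were 2214 higher and 3699 lower, beside 2902 and 2819, and those among proteasome genes 5 higher and 15 lower.

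PA28 was higher in CD8-gated cells. Psme1, the alpha subunit, had 338 CPM in the lowest, 439 CPM in the median and 472 CPM in the highest of the 8 CD4-gated sums (428 ± 42.0, SD, n = 8). In CD8-gated cells the same 3 values were 459, 548 and 598 CPM (543 ± 44.2, SD, n = 8). It was higher in CD8-gated cells in 8 of 8 libraries, by a log2 difference of 0.21 to 0.44 within a library, although the 2 ranges overlapped through the PPCA library of day 4. The fit gave a log2 difference of 0.35 ± 0.025 (SE; edgeR adjusted p = 1.7e-08).

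Psme2, the beta subunit of PA28, ran from 179 to 291 CPM (median 258) in CD4-gated and from 228 to 320 CPM (median 297) in CD8-gated cells. It was higher in CD8-gated cells in 8 of 8 libraries, with a log2 difference of 0.20 ± 0.027 (SE; edgeR adjusted p = 1.7e-05). The third gene of the family, Psme3, which forms a nuclear activator, was higher by only 0.10 (33.97 beside 31.82 CPM, adjusted p = 0.028 in edgeR), in 7 of 8 libraries, a call lost with DESeq2, with plain library sizes, with no low-count filter and in cells of 3000 to 8000 UMIs alone. Psme4, the large monomeric activator PA200, had a log2 difference of 0.02 and was not called. Psme2b, a near copy of Psme2 whose reads may be split with it, was lower by a log2 difference of -0.18 in CD8-gated cells, and this value is uncertain.

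The core genes were called in both directions, 4 higher and 3 lower in CD8-gated cells. Higher were the alpha ring genes Psma5 (93.1 beside 85.7 CPM, log2 difference 0.12) and Psma7 (252 beside 235 CPM, 0.11), and the structural beta genes Psmb1 (385 beside 361 CPM, 0.10) and Psmb2 (102 beside 95.9 CPM, 0.09). Lower were the alpha ring genes Psma6 (88.0 beside 93.9 CPM, -0.10) and Psma3 (230 beside 240 CPM, -0.06) and the catalytic Psmb7 (62.8 beside 66.4 CPM, -0.08). Psma3 was lower in 8 of 8 libraries and Psmb2 higher in 8 of 8. The catalytic Psmb5 (log2 difference 0.02, 114 beside 113 CPM) and Psmb6 (-0.03, 120 beside 122 CPM) were not called. Of the 7 core calls, DESeq2 lost Psmb2, Psmb7 and Psma3 (adjusted p of 0.058, 0.11 and 0.058), plain library sizes lost Psma5 and Psmb2, and a fit with no low-count filter lost Psma3 and Psmb7, each with its direction kept.

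In the 19S cap 1 ATPase gene and 1 other subunit gene were called. Psmd4, a ubiquitin receptor of the cap, had 137 to 161 CPM (median 147) in CD4-gated and 123 to 151 CPM (median 134) in CD8-gated cells. It was lower in CD8-gated cells in 8 of 8 libraries, by a log2 difference of -0.13 ± 0.022 (SE; edgeR adjusted p = 0.00012). Of the 6 ATPase genes only Psmc3 was called, at -0.06, and of the 11 other cap genes only Psmd4. Psmc3 lost its call with DESeq2 and with no low-count filter. Counts of calls were not tested between the core and the cap. Psmd9, a chaperone of the ATPase ring, was higher in CD8-gated cells in 8 of 8 libraries (31.8 beside 28.2 CPM, log2 difference 0.16). Psmg1, a chaperone of alpha ring assembly, was lower in 7 of 8 libraries, at 23.9 beside 28.1 CPM and with the lowest log2 difference of all, -0.23. The inhibitor Psmf1 was at -0.12 and was not called (edgeR adjusted p = 0.078).

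**Figure D2:**
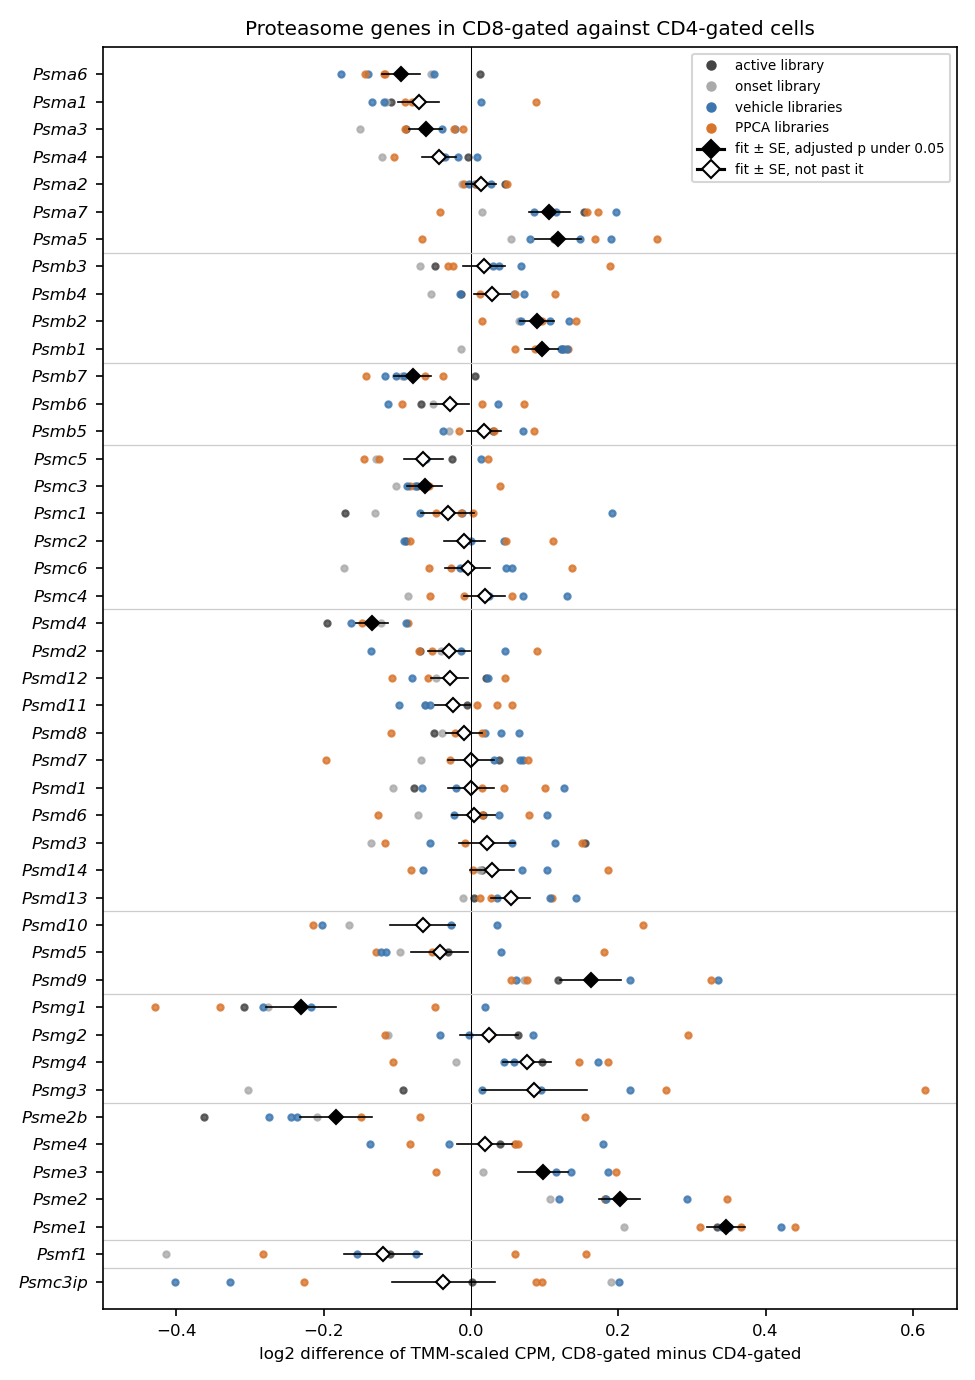
Log2 difference of TMM-scaled CPM between CD8-gated and CD4-gated cells (horizontal axis) for each of the 45 genes (vertical axis, grouped by role), with 1 dot per library and a diamond with a bar for the fitted value ± SE, filled where called. Psme1 (0.35) and Psme2 (0.20) stand farthest right among the filled diamonds and Psmg1 (-0.23) farthest left.

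The immunoproteasome genes, too, were higher. All 3 were called higher in CD8-gated cells, in 8 of 8 libraries each: Psmb8 by a log2 difference of 0.37 (679 beside 528 CPM), Psmb10 by 0.29 (172 beside 142 CPM) and Psmb9 by 0.27 (252 beside 209 CPM). Of 3 further lists, 5 of 11 other proteasome factors tested, 2 of 8 genes of the transcription factor pathway and 3 of 9 ubiquitin genes and carriers were called, beside 45.2% of all genes, shares near or below that of all genes. Among the other proteasome factors 3 were higher in CD8-gated cells and 2 lower. The higher ones were Ubxn1, the cap subunit Sem1 and the core assembly factor Pomp (log2 difference 0.07 to 0.09). The lower ones were the proteasome-binding zinc finger proteins Zfand2a (-0.38) and Zfand5 (-0.13). In the transcription factor pathway, Nfe2l1 was higher by 0.11 and Nfe2l2 lower by -0.38. Among the ubiquitin genes and carriers, Ubb and Rad23b were higher (0.09 and 0.08) and Ubqln1 lower (-0.12).

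**Figure D3:**
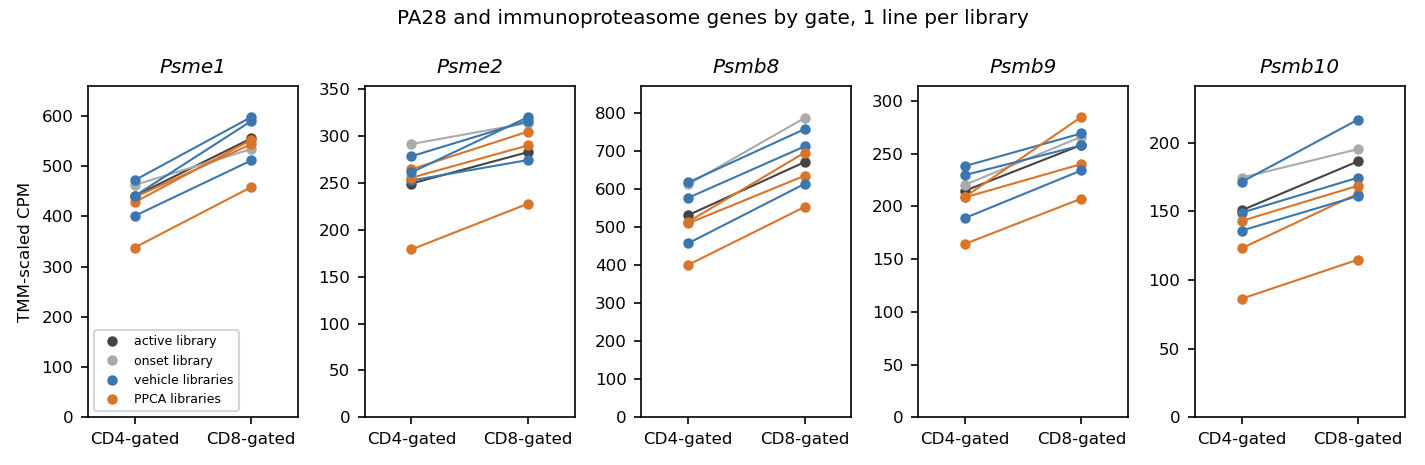
TMM-scaled CPM (vertical axis, from 0) of the PA28 genes Psme1 and Psme2 and of the immunoproteasome genes Psmb8, Psmb9 and Psmb10 in CD4-gated and CD8-gated cells, 1 line per library. Every line rises from CD4-gated to CD8-gated cells.

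Cell state moved with the gates. The summed level of 8 effector genes was 1911 to 5810 CPM in CD8-gated and 125 to 517 CPM in CD4-gated cells, and that of 7 naive genes 2972 to 4369 and 3602 to 5262 CPM (unscaled CPM). The 6 genes of B and myeloid cells summed to 10.8 to 18.98 CPM in CD8-gated and 4.24 to 7.83 CPM in CD4-gated cells. Median UMIs per cell were higher in CD8-gated cells in 8 of 8 libraries. In cells of 3000 to 8000 UMIs alone, Psme1 was higher by 0.33 and Psme2 by 0.18. Of the 6 B and myeloid genes, Ms4a1, Lyz2 and Csf1r were at 0 in some libraries of CD8-gated cells. The 9 interferon response genes summed to 237 to 905 CPM in CD8-gated and 220 to 847 CPM in CD4-gated cells. Within a library they were higher in CD8-gated cells in all but the active library. The 6 dissociation genes summed to 289 to 1745 CPM and 380 to 2243 CPM, lower in CD8-gated cells in every library. The part of the B, myeloid, effector, interferon and dissociation genes in the proteasome values was not tested.

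The cells were therefore also split by the naive genes. Cells with at least 2 UMIs of them (1369 to 4548 cells per library and gate) made up most of the sums. Cells with none (32 to 194 CD4-gated and 139 to 668 CD8-gated cells per library) were few and shallower, with median UMIs of 2922 to 4897. The levels of both states were TMM-scaled together and are on another scale than those of all cells above. Among the cells with naive UMIs, Psme1 ran from 378 to 531 CPM (median 492) in CD4-gated and from 541 to 684 CPM (median 635) in CD8-gated cells. These ranges did not overlap, but those before scaling did (320 to 496 and 427 to 626 CPM, medians of 443 and 551), an alternative chosen after seeing the data. Psme2 ran from 196 to 324 CPM (median 288) in CD4-gated and from 264 to 375 CPM (median 339) in CD8-gated cells. Both were higher in CD8-gated cells in 8 of 8 libraries, by log2 differences of 0.40 and 0.26. In that fit 46.9% of all genes were called, 23.9% higher and 23.0% lower, and 18 of 45 proteasome genes, 10 higher and 8 lower.

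Without naive UMIs the order turned. Psme1 ran from 380 to 497 CPM (median 446) in CD4-gated and from 338 to 484 CPM (median 404) in CD8-gated cells, and was higher in CD8-gated cells in 2 of 8 libraries (log2 difference -0.16, edgeR adjusted p = 0.17). Psme2 ran from 224 to 348 CPM (median 269) and from 176 to 283 CPM (median 225), and was called lower in CD8-gated cells (log2 difference -0.36, edgeR adjusted p = 0.0038), higher in 1 of 8 libraries. In that fit 20.2% of all genes were called, 10.1% in each direction, and 2 proteasome genes, both lower: Psme2 and Psma4, a gene of the alpha ring (-0.41).

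The difference between the states was tested as an interaction of gate and state, chosen after seeing the values above. It called 14.7% of 12735 genes (6.64% above 0 and 8.03% below) and 5 of 45 proteasome genes, 4 above and 1 below. The CD8 minus CD4 difference was higher in cells with naive UMIs for Psme2 (interaction 0.54 ± 0.081, SE; edgeR adjusted p = 4.3e-06), Psme1 (0.48 ± 0.068; adjusted p = 1.5e-06), Psma4 (0.33) and Psma7 (0.28), and lower for the structural beta gene Psmb3 (-0.26). In the fits of each state Psma4 had differences of -0.016 with and -0.41 without naive UMIs, Psma7 of 0.14 and -0.22 and Psmb3 of 0.0012 and 0.19. The immunoproteasome gene Psmb9 went the other way, with an interaction of -0.42 (edgeR adjusted p = 2.7e-05), as did Psmb8 at -0.20 (edgeR adjusted p = 0.035), and Psmb10 was not called. Psmb8 and Psmb9 were higher in CD8-gated cells in 8 of 8 libraries in both states. The interactions of PA28 and of Psmb9 thus had opposite signs. A cell without naive UMIs can be an effector cell or a shallow one, and the 2 were not separated here.

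The authors' deposited table of marker genes lists 3 of the proteasome genes among 7 named clusters. In the authors' deposited table Psme1 is listed for both the cluster named CD4 Th1 (log2 fold change 0.33, detected in 90.7% of its cells) and that named CD8 TCM (0.26, 90.2%). The authors' deposited table gives Psme2 for CD4 Th1 (0.34, 78.0%) and Psma4 for CD4 Th0 (0.25, 53.3%). For the immunoproteasome, the authors' deposited table has Psmb9 and Psmb10 in CD4 Th1, and Psmb8 (0.68) and Psmb9 (0.54) in the cluster named CD8 TRM TEM. PA28 genes are not listed for that last cluster. The table holds only genes past a log2 fold change of 0.25, so an absent gene has no value there.

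The second comparison set PPCA against vehicle, with harvest day as a block. No gene was called in T, CD4-gated or CD8-gated cells (0.0% of 13617, 11951 and 11948 genes in edgeR), hence 0 of 45 proteasome genes. At an unadjusted p under 0.05 there were 4, 4 and 6 of 45 proteasome genes, beside 8.04%, 6.71% and 7.98% of all genes. DESeq2 and limma-voom called 0 of them in each of the 3 sets, and 68, 27 and 41 (DESeq2) and 0, 0 and 2 (limma-voom) of all genes. With 2 residual degrees of freedom, the fit recovered 2% of genes simulated with a 1.25-fold change in T cells and 65% of those with a 2-fold change, so differences of the size below were mostly not detectable.

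The fitted values lay below 0 for most proteasome genes. In CD4-gated cells 41 of 45 were below 0, with a median log2 difference of -0.13 beside 0.00015 for all genes, and in CD8-gated cells 41 of 45, with a median of -0.13 beside 0.0015. With plain library sizes the median of all genes was 0.083 and 0.091 and that of proteasome genes -0.047 and -0.038, with 9 and 14 of 45 above 0. The catalytic subunits were all below 0: Psmb7 had log2 differences of -0.25 and -0.23 in CD4-gated and CD8-gated cells, Psmb6 of -0.23 and -0.20, and Psmb5 of -0.20 and -0.18. The other members with the lowest values were Psma2 of the alpha ring (-0.24 and -0.24), Psmc4 of the ATPase ring (-0.26 in CD8-gated cells) and Psme2b (-0.29 in CD4-gated cells, uncertain). The highest value was that of Psmg2, a chaperone of alpha ring assembly, at 0.19 and 0.24. Next to it were Psma3 (0.02) and Psme3 (0.01) in CD4-gated cells, and Psmc3ip (0.07) and the cap chaperone Psmd5 (0.03) in CD8-gated cells. Psme4 was at -0.10 and -0.08 and Psmf1 at -0.16 and -0.07. Of the immunoproteasome, Psmb8 was at -0.21 and -0.15, Psmb9 at -0.18 and -0.07 and Psmb10 at -0.40 and -0.32. None of these was called.

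Psmb7 is given day by day as a gene among the lowest fitted values, and does not stand for the whole set. In CD4-gated cells it had 62.6, 81.4 and 65.7 CPM with vehicle on days 2, 3 and 4 and 56.9, 66.6 and 53.4 CPM with PPCA, lower on each day. In CD8-gated cells the values were 58.3, 76.4 and 60.6 CPM with vehicle and 51.6, 63.7 and 52.0 CPM with PPCA, again lower on each day. The ranges of the 2 treatments overlapped, with day 3 the highest in both. Psmb6 was also lower on each day in both gates, for example at 123, 141 and 124 CPM with vehicle and 106, 120 and 106 CPM with PPCA in CD4-gated cells. Psmb5 in CD4-gated cells was at 113 and 115 CPM on day 2 and at 110 and 82.4 CPM on day 4 with vehicle and PPCA.

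PA28 differed most on day 4. Psme1 in CD8-gated cells had 512, 598 and 590 CPM with vehicle and 544, 552 and 459 CPM with PPCA on days 2, 3 and 4, and Psme2 had 274, 316 and 320 CPM and 290, 305 and 228 CPM. Both were higher with PPCA on day 2 and lower on days 3 and 4, although with plain library sizes day 3 turned, to log2 differences of 0.06 for Psme1 and 0.12 for Psme2. Psmg2 in CD8-gated cells had 46.7, 46.5 and 46.2 CPM with vehicle and 61.9, 50.5 and 53.0 CPM with PPCA, and was not called (edgeR adjusted p = 0.61). Psmb10 of the immunoproteasome had 174, 217 and 161 CPM with vehicle and 163, 169 and 115 CPM with PPCA in CD8-gated cells, and was not called either.

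Over all genes of the filtered tables, 13.9% in CD4-gated and 13.9% in CD8-gated cells were lower with PPCA on all 3 days. Of the proteasome genes 15 of 45 (33.3%) and 22 of 45 (48.9%) were. With plain library sizes, an alternative chosen after seeing the data, the shares were 6.95% and 6.23% of all genes, and 6 of 45 (13.3%) and 8 of 45 (17.8%) of the proteasome genes, among them Psmb6, Psmb7 and Psma2 in both gates. Genes of 1 complex vary together, so these shares are a description without a test. The median proteasome difference by day was 0.02, -0.13 and -0.28 in CD4-gated and -0.05, -0.15 and -0.18 in CD8-gated cells on days 2, 3 and 4. With plain library sizes it was 0.04, 0.04 and -0.22 in CD4-gated cells (all genes 0.03, 0.17 and 0.05) and 0.0074, 0.02 and -0.16 in CD8-gated cells (all genes 0.07, 0.18 and 0.03), so that on day 4 alone it lay below 0 under both scalings in both gates. Without the 2 libraries of day 4 the fitted median was -0.071 in CD4-gated and -0.13 in CD8-gated cells.

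**Figure D4:**
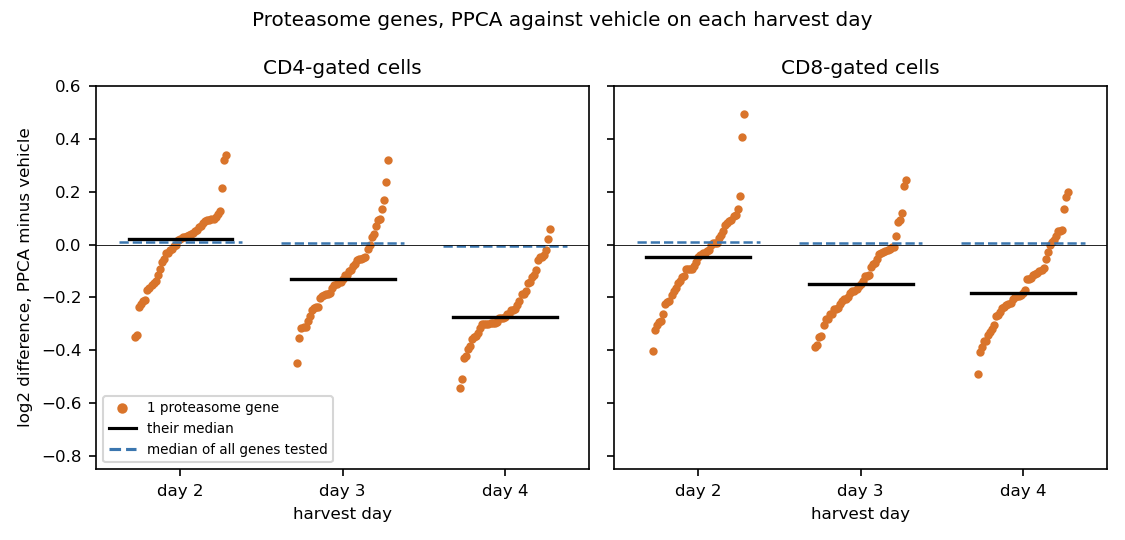
Log2 difference between PPCA and vehicle (vertical axis) for each of 45 proteasome genes, sorted within each harvest day (horizontal axis), in CD4-gated (left) and CD8-gated cells (right), with 1 dot per gene from 1 library per treatment. The solid bars give the median of the proteasome genes, from 0.02 on day 2 to -0.28 on day 4 in CD4-gated cells, and the dashed bars that of all genes tested, which stays near 0. With plain library sizes the proteasome medians of days 2 and 3 lie at or above 0 (0.0074 to 0.04) and those of day 4 below (-0.22 and -0.16).

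Other measures differed between vehicle and PPCA, some of them not in the same direction on each day. In T cells, on days 2, 3 and 4, the 9 interferon response genes summed to 477, 416 and 286 CPM with vehicle and 879, 569 and 226 CPM with PPCA. The 6 dissociation genes summed to 753, 839 and 1620 CPM and to 351, 674 and 2048 CPM, and the 8 effector genes to 1322, 911 and 806 CPM and to 2160, 1016 and 2247 CPM. Median UMIs per T cell were 5130, 5430 and 4952 with vehicle and 4135, 4619 and 3845 with PPCA. In T cells the 12 exocrine and islet genes summed to 63.6, 101 and 71.5 CPM with vehicle. With PPCA they summed to 98.0, 136 and 84.5 CPM. The interferon sums were higher with PPCA on days 2 and 3 and lower on day 4, and the dissociation sums the reverse. The effector, exocrine and islet sums were higher with PPCA on each day, and median UMIs lower. The parts of the interferon, dissociation, effector, exocrine and islet genes in the proteasome values were not tested. Among cells of 3000 to 8000 UMIs alone the median proteasome difference was -0.13 in CD4-gated and -0.12 in CD8-gated cells, and with sex as a further factor -0.13 in both, with 0 proteasome genes called beside 16 and 151 of all genes.

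Whether the difference between the gates itself changed with PPCA was tested as an interaction. It called 1 of 12452 genes (0.00803%) and 0 of 45 proteasome genes, with 1 of 45 at an unadjusted p under 0.05, beside 3.77% of all genes. That gene was Psme2b (0.23, edgeR adjusted p = 1.0). DESeq2 and limma-voom also called 0 proteasome genes and 1 gene in all. Psme1 was 1.29-fold higher in CD8-gated cells in both treatments (interaction -0.0029 ± 0.056, SE), and Psme2 1.15-fold with vehicle and 1.18-fold with PPCA (0.04 ± 0.066, SE). Psmg1 had the lowest interaction (-0.12), followed by the cap subunits Psmd7 (-0.11) and Psmd8 (-0.08), and Psmg3 (0.16) and Psmc3ip (0.14) followed Psme2b at the upper end. The catalytic subunits Psmb5, Psmb6 and Psmb7 lay between 0.01 and 0.03, Psme3 at -0.07, Psme4 at 0.01 and Psmf1 at 0.10. Psmb8, Psmb9 and Psmb10 were at 0.06, 0.11 and 0.07. A difference between the gates with 1 sign in every vehicle library and the other in every PPCA library was found in 1 of 45 proteasome genes, the cap subunit Psmd11, and in 1.06% of all genes.

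The third comparison set day 4 against days 2 and 3, across both treatments. It rests on 1 harvest day against 2. The fit took the 2 libraries harvested together as independent, although they deviated together (correlations of 0.33 to 0.52 in the gates), so its p-values may be too small. Of all genes 14.8% were called in CD4-gated and 12.1% in CD8-gated cells (edgeR), of the proteasome genes 3 and 4 of 45. By direction, 8.55% of all genes were higher and 6.29% lower on day 4 in CD4-gated cells, and 6.8% and 5.25% in CD8-gated cells. Psma4, Psmg3 and Psme2b were lower on day 4 in both gates, and Psmd9 was higher in CD8-gated cells. The median proteasome difference was -0.07 in CD4-gated and 0.03 in CD8-gated cells, beside -0.02 and -0.03 for all genes. With plain library sizes the median of all genes moved to -0.18 and -0.19 and that of proteasome genes to -0.23 and -0.13. The calls among all genes then changed from 1022 higher and 752 lower to 527 and 840 in CD4-gated cells, and from 813 and 627 to 367 and 499 in CD8-gated cells.

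Psmg3, which with Psmg4 chaperones alpha ring assembly, was the most changed. In CD4-gated cells it had 17.8 and 18.5 CPM on days 2 and 3 and 10.1 CPM on day 4 with vehicle, and 17.0, 17.5 and 7.12 CPM with PPCA. In CD8-gated cells it had 18.0, 21.5 and 10.8 CPM with vehicle and 20.4, 18.5 and 10.9 CPM with PPCA. Day 4 was lower than every library of days 2 and 3 in both gates. The fitted log2 differences were -1.03 ± 0.14 (SE; edgeR adjusted p = 0.0036) and -0.84 ± 0.13 (SE; edgeR adjusted p = 0.0084).

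Psma4, a subunit of the alpha ring, had 126, 145 and 101 CPM with vehicle and 125, 129 and 83.1 CPM with PPCA on days 2, 3 and 4 in CD4-gated cells, and 127, 141 and 99.6 CPM and 121, 126 and 77.3 CPM in CD8-gated cells. It fell by 0.51 and 0.54 on the log2 scale. Psme2b fell by 0.59 and 0.62, with the doubt stated above. Psmd9 in CD8-gated cells had 31.4, 32.9 and 40.3 CPM with vehicle and 25.5, 28.7 and 41.7 CPM with PPCA, with a log2 difference of 0.49. In these 4 genes the day 4 values did not overlap those of the other days in the gates where they were called, which is common in these data: both day 4 libraries were below all 4 of days 2 and 3 in 20.5% of all genes in CD4-gated and 21.6% in CD8-gated cells, and above them in 19.4% and 18.1%. Of the 45 proteasome genes, 6 and 4 were below and 4 and 7 above. Psme4 had a log2 difference of 0.40 in CD4-gated and 0.35 in CD8-gated cells and was not called, nor were Psmb5 (-0.27 and -0.18), Psmb6, Psmb7, Psme1, Psme2, Psme3 and Psmf1. Psmb8 (-0.36 and -0.25), Psmb9 (-0.32 and -0.24) and Psmb10 (-0.42 and -0.39) of the immunoproteasome were not called either.

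**Figure D5:**
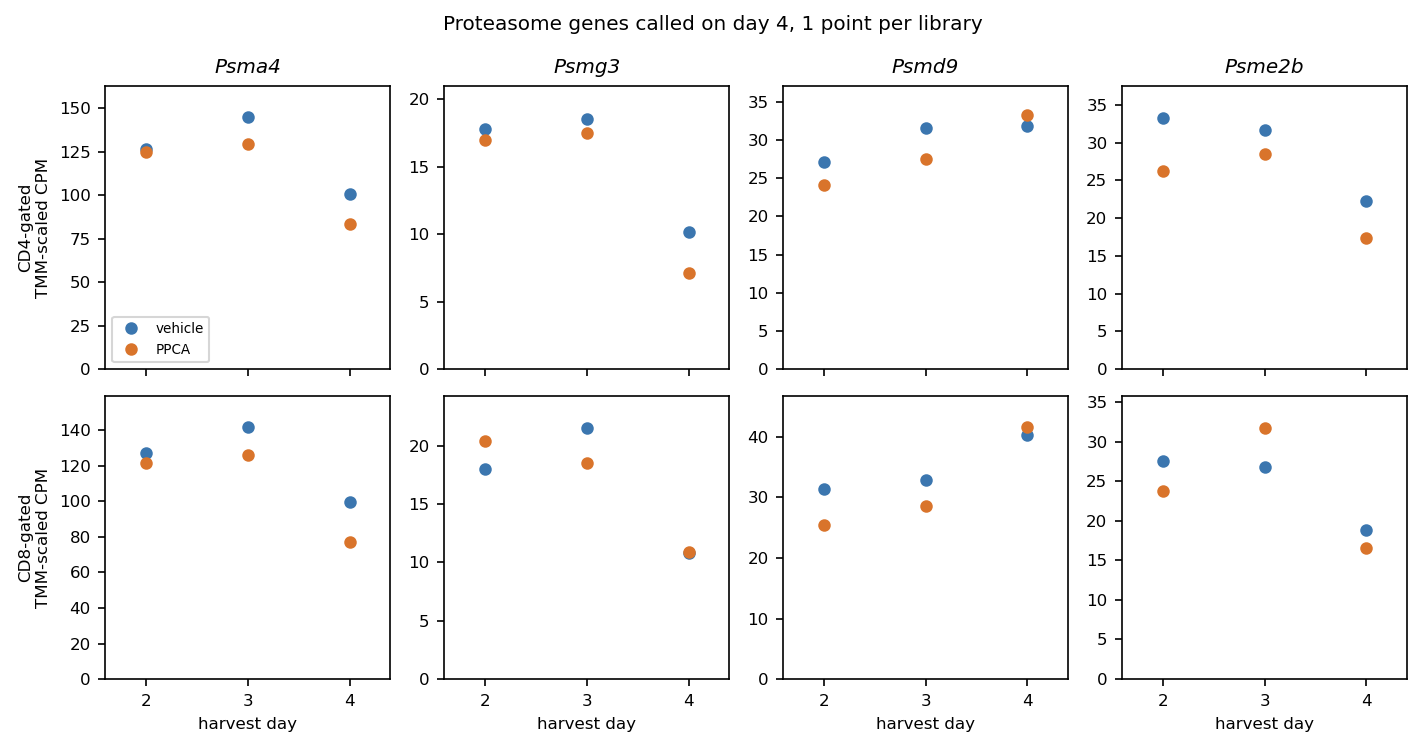
TMM-scaled CPM (vertical axes, from 0) of Psma4, Psmg3, Psmd9 and Psme2b by harvest day (horizontal axis) in CD4-gated (top) and CD8-gated cells (bottom), 1 point per library. On day 4 both points of Psma4, Psmg3 and Psme2b lie below those of days 2 and 3, and in CD8-gated cells those of Psmd9 above.

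The counts rest on few libraries. Without the PPCA library of day 4 there were 0 calls among the proteasome genes in either gate, and without the vehicle library of day 4 there were 2 in CD4-gated and 0 in CD8-gated cells. Without the vehicle library of day 2 or of day 3, CD8-gated cells had 2 each, Psma4 and Psmg3. Psmd9 was called in 1 of 6 fits that left out a library, and with plain library sizes it had a log2 difference of 0.32 and lost its call (edgeR adjusted p = 0.25). Of the wider pathway, Zfand2a (log2 difference 2.33 in CD4-gated and 1.68 in CD8-gated cells) and the small Maf factor Mafk (1.67 and 1.52) were higher on day 4. Nfe2l2 (-0.91 and -0.79) and its adaptor Keap1 (-0.44 and -0.42) were lower. Without the PPCA library of day 4 the call was lost for Nfe2l2 in both gates and for Zfand2a and Mafk in CD8-gated cells. Keap1 lost its call in 4 of 6 fits that left out a library in CD4-gated and in 5 of 6 in CD8-gated cells, and there also with plain library sizes. The 6 dissociation genes summed to 1481 to 2243 CPM on day 4 and to 289 to 984 CPM on days 2 and 3 in the 2 gates. The 7 naive genes summed to 4849 and 5262 CPM with vehicle and PPCA on day 4 and to 3638 to 3998 CPM on days 2 and 3 in CD4-gated cells, and to 3835 and 4369 CPM and to 3078 to 3365 CPM in CD8-gated cells. The 9 interferon response genes summed to 266 and 220 CPM on day 4 and to 383 to 847 CPM on days 2 and 3 in CD4-gated cells, and to 320 and 237 CPM and to 443 to 905 CPM in CD8-gated cells. None of these 3 sums overlapped between day 4 and the other days within a gate, and the part of these genes in the day 4 values was not tested. Day 4 was also the only pair in which the vehicle library carried Xist and the PPCA library Y-linked transcripts.

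The active and onset libraries, 1 each, were compared without a test by the log2 ratio of unscaled CPM. Of 45 proteasome genes 0 were at least 1.5-fold apart in either gate, beside 4.03% of 7393 genes in CD4-gated and 6.06% of 7459 genes in CD8-gated cells. Most had lower values in the active library, with 6 of 45 ratios above 0 and a median of -0.16 in CD4-gated cells (all genes 0.00036), and 9 of 45 and -0.18 in CD8-gated cells (all genes -0.06). Psmb2 had the lowest ratio, at 84.7 CPM (95% exact Poisson interval 80.5 to 89.1, counting error only) in the active and 118 CPM (113 to 122) in the onset library in CD4-gated cells, and 87.6 and 124 CPM in CD8-gated cells. Psmc5, an ATPase of the cap, had ratios of -0.41 and -0.37, the cap subunit Psmd12 of -0.32 in CD4-gated cells and Psmc3ip of -0.36 in CD8-gated cells. The activator Psme4 had the highest, at 36.6 and 26.3 CPM in CD4-gated and 36.5 and 27.6 CPM in CD8-gated cells (ratios 0.48 and 0.40). Psme2b, with the doubt stated above, had 0.43 in CD4-gated and Psmg3 0.24 in CD8-gated cells. The catalytic Psmb5 (-0.28 and -0.28), Psmb6 (-0.24 and -0.32) and Psmb7 (-0.09 and -0.05) had lower values in the active library, while Psme1 differed by -0.04 and 0.03 and Psme2 by -0.19 and -0.18. Psmf1 was at 0.15 and 0.39 and Psme3 at 0.05 and 0.07, and of the immunoproteasome Psmb8 was at -0.17 and -0.26, Psmb9 at -0.0051 and -0.07 and Psmb10 at -0.18 and -0.09. Interferon response genes summed to 694 and 381 CPM in CD4-gated and to 680 and 472 CPM in CD8-gated cells of the active and onset libraries. Effector genes summed to 224 and 257 CPM in CD4-gated and to 2151 and 5554 CPM in CD8-gated cells, and dissociation genes to 663 and 972 CPM and to 407 and 809 CPM. Naive genes summed to 3717 and 3602 CPM and to 2972 and 2974 CPM. Median UMIs per T cell were 6443 and 4940. The part of these genes and of depth in the ratios was not tested.

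How far the proteasome genes varied together was described over the 8 libraries. The median Pearson correlation of log2 levels between 2 proteasome genes was 0.39 in CD4-gated and 0.28 in CD8-gated cells, beside 0.01 and 0.0075 for pairs of all genes of at least 10 CPM. These correlations share libraries, depth and scaling and carry no test. In CD4-gated cells Psma6 (median correlation with the others 0.68), Psmb5 (0.66) and Psme2 (0.64) followed the set most closely, and in CD8-gated cells Psmc4 (0.54), Psmb6 (0.52) and Psma7 (0.50). Psme4 went against the set in both gates (-0.39 and -0.18), as did Psmd9 in CD4-gated (-0.16) and Psmg2 in CD8-gated cells (-0.32). The median SD of a proteasome gene over libraries was 0.15 and 0.14 on the log2 scale, beside 0.18 and 0.18 for all genes of at least 10 CPM. Those genes were not matched to the proteasome genes in level, either here or for the correlations. Psmg3 had the largest spread of the 45 (SD 0.52 in CD4-gated and 0.38 in CD8-gated cells), with its lowest values on day 4.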

How the data were processed

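Raw UMI counts per gene and barcode of the 8 libraries were used as the authors deposited them. The submitters' processing notes name Cell Ranger 6.1.2 and Seurat, and the matrix headers, per the file headers, Cell Ranger 6.0.0. For the genome build, the sources used here name none. The authors' deposited table of cluster markers holds log2 fold changes, fractions of cells with the gene (printed as percent) and adjusted p-values (not printed). The labels name a version 2 3′ kit.

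Cells needed at least 500 genes and under 10% mitochondrial UMIs. Scrublet in scanpy 1.11.5 scored doublets, and the top 0.8% per 1000 barcodes were removed. T cells had at least 2 UMIs of 6 T cell genes and at most 1 of 6 B and myeloid genes. Counts were summed per library and gate and fitted with edgeR 4.0.16 in R 4.3.3 (TMM, filterByExpr, quasi-likelihood test, Benjamini-Hochberg adjusted p under 0.05). The gate fit had library as a block (16 sums, 7 residual degrees of freedom), the PPCA fits harvest day, and the day 4 fits treatment. DESeq2 1.42.0, limma 3.58.1 (voom) and other cell filters, scalings and left-out libraries were tried. Active and onset, with 1 library each, had no test. A ratio counted as changed from 1.5-fold on, if the larger value reached 10 CPM, with a floor of 3 counts.

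Vehicle and PPCA libraries of a harvest day were paired by day, which the labels give. Their deviations from the group means correlated at 0.33 to 0.55 on each day in each set of cells. Each mean held 3 libraries, so a shift shared on day 4 also enters the deviations of days 2 and 3. Correlations between libraries of unlike days were not computed, so these values do not show that the pairing holds on each day. The fits were tested on simulated data with 200 changed genes per comparison. In the gate comparison 93% of genes with a 2-fold change were recovered and 67% of those with a 1.25-fold change.

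The members and gene lists were chosen with earlier results of these data known. Members were named if called, and otherwise by the 3 highest and 3 lowest values, with the catalytic subunits, activators, inhibitor and immunoproteasome genes throughout. Of 32 pathway genes 31 were matched, and some further pathway genes are not reported here. The interferon element, the split by treatment, plain library sizes (by harvest day too) and the interaction of gate and cell state were added after seeing the data.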

Additional observations from a re-analysis of the deposited data

Results flagged for a closer look

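Psmd11, a subunit of the 19S cap, had a CD8 minus CD4 log2 difference with 1 sign in all 3 vehicle libraries and the other sign in all 3 PPCA libraries. The mean difference was -0.072 with vehicle and 0.033 with PPCA. The interaction of gate and treatment was 0.10 ± 0.058 (SE) and was not called (adjusted p = 1.0 in edgeR). The pattern was found in 1 of 45 proteasome genes, beside 1.06% of all genes.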

How the results depend on the processing

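Among proteasome genes, the count called between CD8-gated and CD4-gated cells (15) was 2 with no replicate block (library not fitted), 2 in cells with no naive gene UMI, 9 in the vehicle libraries alone and 3 in the PPCA libraries alone, the last pair chosen after seeing the data. It was 10 with DESeq2 and 12 with no low-count filter. It was 12 to 18 when any 1 library was left out, and Psmc3 was called in 2, Psme3 in 3 and Psma3 in 5 of those 8 fits. In cells with no naive gene UMI, the log2 difference turned for Psme1 (-0.16), Psme2 (-0.36), Psme3 (-0.015), Psma5 (-0.16), Psma7 (-0.22), Psmc3 (0.033), Psme2b (0.21), Pomp (-0.19), Ubxn1 (-0.059), Nfe2l1 (-0.20) and Nfe2l2 (0.20). That fit had fewer cells and tested fewer genes, and the cause was not tested. The PPCA and interaction counts stayed at 0 under every alternative run, with no replicate block (0) for PPCA and with a replicate block of harvest day by gate (0) for the interaction, although few differences of this size could be detected. The day 4 counts (3 and 4) ranged from 0 to 4 in each gate when any 1 library was left out. Over 31 settings, 2378 values kept their direction and side of the threshold, 156 lost their call, 17 gained one, 11 reversed and 9 counts moved by over 1.5 times.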
